A study of Homo sapiens with 15 samples.

Results

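The 44 genes described here are the cyclins, the cyclin-dependent kinases (CDKs), the E2F factors and the RB family, together with the CDK inhibitors, phosphatases, mitotic kinases and proliferation regulators that act on them. They were chosen by name, with earlier results of these data known, and all 44 were found among the 58302 genes of the count tables. RNA-seq was labelled for 15 libraries in 5 groups of 3, and only the 3 libraries of C4-2B cells were analysed here. The groups labelled DKD scr, DKD siPax5, ER scr and ER siPax5 were not analysed here, so no comparison between cell lines or with siPax5 was made. C4-2B is an established human prostate adenocarcinoma line derived from LNCaP. Its libraries carry the genotype label wild type and no treatment label, and the cells were grown in RPMI with fetal bovine serum. Nothing in the labels says that the replicates came from separate cultures, so their spread may be technical.

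The cell cycle is driven by CDKs, which are active only when bound to a cyclin. In G1 phase, D cyclins with CDK4 or CDK6, and then E cyclins with CDK2, phosphorylate the RB family proteins and release E2F factors, which switch on genes for DNA synthesis. A and B cyclins with CDK1 then carry the cell through G2 phase and mitosis. Loss of RB1 is common in neuroendocrine-like prostate cancer, and C4-2B is an adenocarcinoma line from before that transition.

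Levels are given as TPM, a count divided by the exon length of the gene and scaled to the same sum in each library, so that genes of different length can be compared. The libraries held 44992971, 49569026 and 46232076 counts, and the 44 genes took 554188 of them, or 0.394%. RN7SL2, a small structural RNA, took 19.6% of TPM, and when TPM was scaled to protein-coding genes alone every level was higher by a factor of 1.39 on average. The luminal prostate markers KLK3 (1988 TPM), KLK2 (321 TPM), KRT8 (197 TPM) and KRT18 (254 TPM) were all present. Of markers of other cell types, the leukocyte gene PTPRC had 2 counts in all, the endothelial gene PECAM1 had 14, and the fibroblast genes COL1A2 and DCN had 0. The third fibroblast gene, COL1A1, stood at 7.09 ± 0.58 TPM (SD, n = 3) with 3139 counts. In bulk RNA, fewer cells of a type and less RNA per cell cannot be told apart, so a level here is an average over all phases of the cycle.

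Of the 44 genes, 42 (95.5%) were expressed at 1 TPM or more in all 3 libraries. The same was true of 32.8% of all genes and 61.2% of protein-coding genes. Only CCND2 and CCNA1 were below this level. The median of the 44 genes was 43.6 TPM, against 22.2 TPM for expressed protein-coding genes, and 34 of the 44 were above that value. A level of 100 TPM or more was reached by 8 genes, in descending order CDK1, MYBL2, CCND1, CCNB1, E2F1, CDKN1B, FOXM1 and MKI67, whereas 6.37% of protein-coding genes were that high. Another 32 genes lay from 10 to 100 TPM, and E2F5 and CDKN2B lay from 1 to 10 TPM. Which genes fell in each band depended on the exon length used. With the length of the canonical transcript of each gene instead, E2F1 (81.5 TPM), CDKN1B (84.5 TPM), FOXM1 (99.2 TPM) and MKI67 (69.9 TPM) were below 100 TPM. CCNB2 (113.8 TPM) and CDK4 (111.8 TPM) were then above it.

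**Figure D1:**
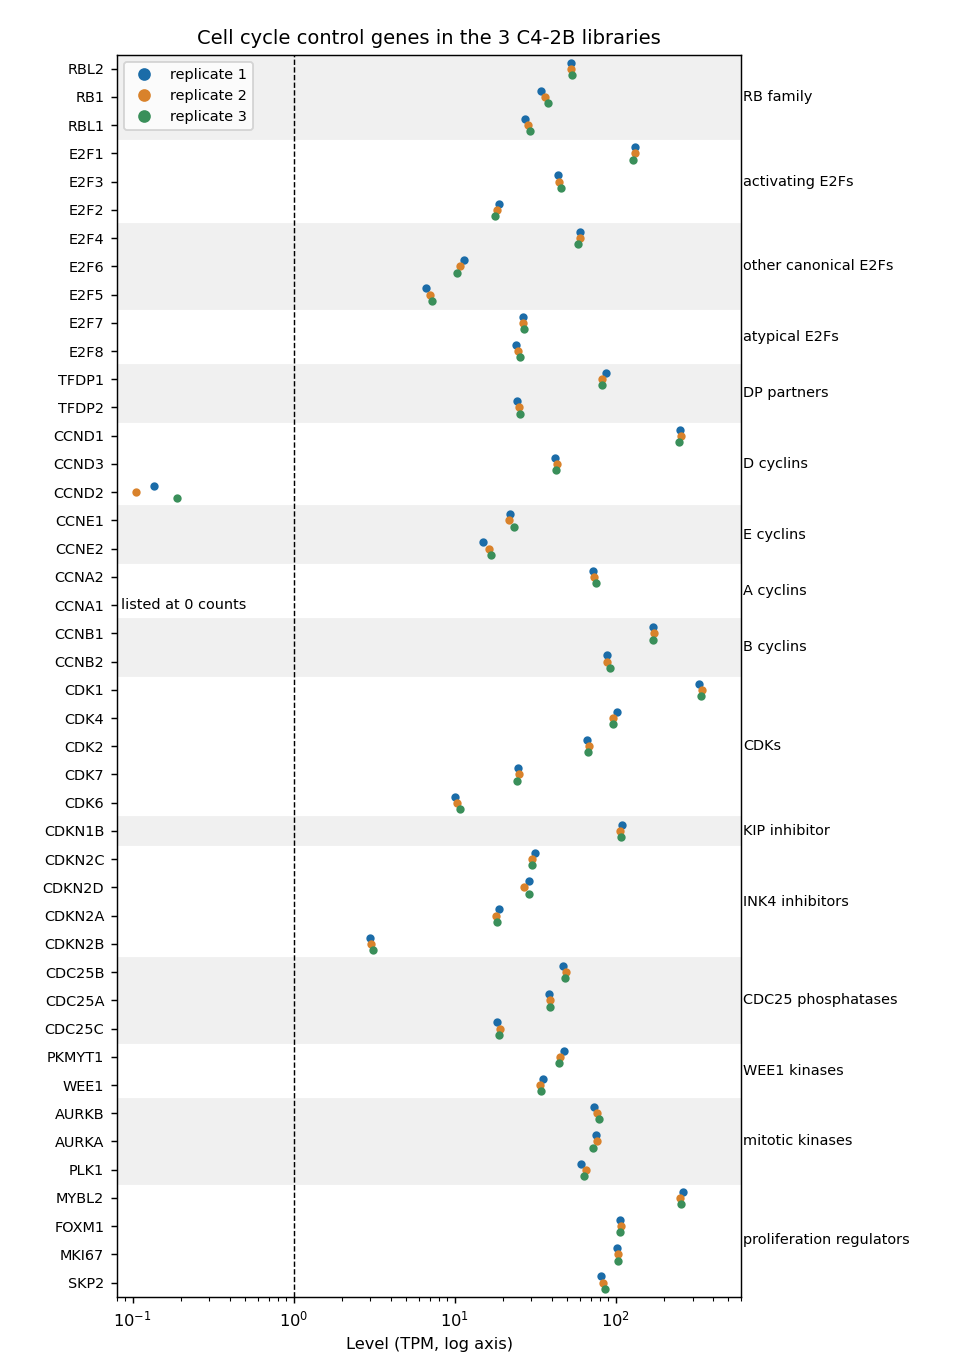
Level of each of the 44 genes in TPM on a log axis, with 1 point per library and genes grouped by role. The dashed line marks 1 TPM. CDK1 is the highest (327 to 345 TPM), CCND2 lies below the line, CCNA1 is listed at 0 counts, and the points of most genes nearly coincide.

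Many cell cycle genes carry short DNA elements at their start sites that bind E2F, the LIN54 subunit of the MuvB complex (the CHR element) or NF-Y (the CCAAT box). RefSeq promoter windows on GRCh38.p14, from 250 bases before to 50 bases after a start, were matched by symbol for 34 of the genes. E2F5, E2F8, CCND1, CCND2, CCNE2, CDK2, WEE1, PKMYT1, AURKA and FOXM1 had no window. The windows of CDK1, the highest of the 44 genes, E2F1, the highest E2F, and CCNA2 and CCNA1, the cyclin A genes with opposite levels, are shown 5′ to 3′ with element matches in capitals. They lie at chr10:60778081-60778380 on the plus strand, chr20:33686336-33686635 and chr4:121823834-121824133 on the minus strand, and chr13:36431705-36432004 on the plus strand. Windows and elements were chosen after the levels were seen.
CDK1: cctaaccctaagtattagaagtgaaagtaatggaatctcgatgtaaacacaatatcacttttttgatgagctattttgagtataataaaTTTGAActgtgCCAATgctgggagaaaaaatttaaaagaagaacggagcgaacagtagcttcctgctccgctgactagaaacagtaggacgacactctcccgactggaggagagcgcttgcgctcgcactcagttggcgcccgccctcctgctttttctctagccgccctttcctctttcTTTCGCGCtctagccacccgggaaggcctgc
E2F1: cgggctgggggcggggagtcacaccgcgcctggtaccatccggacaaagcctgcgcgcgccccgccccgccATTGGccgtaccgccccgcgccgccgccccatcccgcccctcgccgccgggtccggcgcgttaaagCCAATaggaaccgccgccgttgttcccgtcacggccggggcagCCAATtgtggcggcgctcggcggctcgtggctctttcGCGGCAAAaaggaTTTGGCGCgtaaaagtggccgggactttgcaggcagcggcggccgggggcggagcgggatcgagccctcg
CCNA2: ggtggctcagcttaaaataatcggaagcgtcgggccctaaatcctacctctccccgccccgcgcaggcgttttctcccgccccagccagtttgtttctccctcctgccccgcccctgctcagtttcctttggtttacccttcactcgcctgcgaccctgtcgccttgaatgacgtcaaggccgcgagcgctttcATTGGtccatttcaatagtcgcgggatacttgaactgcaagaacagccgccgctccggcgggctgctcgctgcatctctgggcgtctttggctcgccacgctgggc
CCNA1: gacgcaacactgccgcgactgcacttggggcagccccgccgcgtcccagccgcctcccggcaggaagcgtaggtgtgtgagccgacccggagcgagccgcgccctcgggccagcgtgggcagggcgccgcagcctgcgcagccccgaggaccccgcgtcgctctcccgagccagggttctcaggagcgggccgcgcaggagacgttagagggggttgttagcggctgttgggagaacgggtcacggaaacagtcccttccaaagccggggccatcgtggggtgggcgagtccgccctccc

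The CDK1 window held all 3 kinds of element. Its E2F match lay at position 20, its CHR match at position -161 and its CCAAT match at position -150. Positions are those of the first base of a match, counted with the start base as 1. The E2F1 window held E2F matches at positions -33 and -20 and 3 CCAAT matches. CCNA2 had 1 CCAAT match, at position -56, and CCNA1 had none of the 3. The CCNA1 window held 35 CpG dinucleotides, against a median of 14 over all windows. The E2F1 window held 46, that of CCNA2 26 and that of CDK1 15. A match shows only that the letters are present. Only exact letters were searched, so the lack of a match does not show that an element is absent.

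The letters searched on both strands were TTTGGCGC, TTTGCCGC, TTTCGCGC or TTTCCCGC for E2F, TTTGAA or TTCGAA for CHR, and CCAAT. An E2F match was found for 7 of the 34 genes (20.6%), namely CDC25A, CDK1, E2F1, E2F2, E2F3, RBL1 and TFDP1, and for 3.99% of the 27305 genes with a window. CHR matches were found for 26.5% of the 34 and 19.5% of all genes, and CCAAT matches for 55.9% and 39.7%. Among genes that act from G1 to S phase, 4 of 9 with a window had an E2F match, 1 had a CHR match and 4 had a CCAAT match. Among those of G2 phase and mitosis, 1 of 9 had an E2F match, 5 had a CHR match and 8 had a CCAAT match. A gene with several start sites had several windows and so more chance of a match, and the only RB1 window lay inside the gene, far from its first exon. No test was made of these shares.

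The genes of the RB family proteins, which hold E2F factors inactive, were all expressed as RNA. RBL2 (p130), the member that binds E2F4 in resting cells, was the highest at 52.8, 52.8 and 53.4 TPM in replicates 1, 2 and 3, a spread of 0.71% of its mean. RB1 (ENSG00000139687), the retinoblastoma protein gene, stood at 34.2, 36.5 and 38.2 TPM (36.3 ± 1.99, SD, n = 3). RBL1 (p107) was lowest at 27.4, 28.6 and 29.5 TPM. The ranges of the 3 genes did not overlap, and RB1 lay below RBL2 in every library. The log2 ratio of RB1 to RBL2 was -0.55 ± 0.07 (SD, n = 3) and remained below 0 under every length tried. In RBL2, 18.2% of exon bases lie under genes on the other strand, AKTIP among them, and reads there were not counted for either gene. RB1 (chromosome 13, 48303751 to 48481986, plus strand, GRCh38) has no such overlap. An RB1 transcript was thus present in these C4-2B cells at a level above that of 79.3% of all protein-coding genes, expressed or not.

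Among the activating E2Fs, E2F1 (ENSG00000101412, chromosome 20, 33675683 to 33686404, minus strand) was the highest in every library. It stood at 132, 131 and 127 TPM (130.1 ± 2.45, SD, n = 3), E2F3 at 43.5, 44.3 and 46.1 TPM, and E2F2 at 18.8, 18.4 and 17.7 TPM. Of the E2Fs that act mainly as repressors, E2F4, the usual partner of RBL1 and RBL2, was the highest at 60.4, 60.3 and 58.6 TPM. E2F6, which represses without an RB protein, was at 11.4, 10.8 and 10.4 TPM. E2F5 was the lowest E2F at 6.64, 6.98 and 7.25 TPM, with 18.6% of its exon bases under RBIS and another gene on the opposite strand. No library of one gene entered the range of another in these 2 groups. E2F1 took 40.4% ± 0.479 of the summed TPM of the 8 E2F genes and E2F4 took 18.5%. With canonical transcripts these shares were 31.9% and 26.7%. With no length they were 26.6% and 17.5%, and E2F3 at 18.8% was then above E2F4. The log2 ratio of E2F1 to E2F3 over E2F4 to E2F6, each summed, was 1.32 ± 0.01 (SD, n = 3). With the length of the canonical transcript of each gene in place of the union of its exons, the ratio was 0.45. With that length E2F5 was no longer the lowest, at 14.1 TPM against 9.22 TPM for E2F6 and 12.95 TPM for E2F2.

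The atypical E2Fs bind DNA without a DP partner and repress E2F targets late in the cycle. E2F7 stood at 26.6, 26.4 and 26.8 TPM and E2F8 at 24.2, 24.9 and 25.3 TPM, close to each other but without overlap. Of the genes of the DP proteins that pair with the canonical E2Fs, TFDP1 was at 87.4, 82.6 and 82.6 TPM and TFDP2 at 24.4, 25.2 and 25.4 TPM. TFDP1 was the higher partner in every library.

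The D cyclins, which link growth signals to CDK4 and CDK6, differed widely among themselves. CCND1 (ENSG00000110092, chromosome 11, 69641087 to 69654474, plus strand) was the highest cyclin at 251, 253 and 248 TPM (250.4 ± 2.72, SD, n = 3), and CCND3 stood at 41.8, 43.2 and 42.7 TPM. CCND2 had 14, 12 and 20 counts, or 0.143 ± 0.043 TPM. CCND1 was thus 1749-fold higher than CCND2, with a 95% interval of 1311 to 2389 from the exact Poisson interval of the 46 CCND2 counts. Such intervals and the limits for genes at 0 cover counting error only, and are too narrow because both mates of a pair were counted. The log2 ratio of CCND1 to CCND3 was 2.56 ± 0.02 (SD, n = 3), a 5.89-fold difference. It was 1.23 with canonical transcript lengths, since the CCND3 union of 5802 exon bases is far longer than its canonical transcript of 2026. In CCND1 10.3% of exon bases lie under LTO1 on the other strand.

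The E cyclins activate CDK2 at the start of S phase. CCNE1 was at 22.0, 21.9 and 23.5 TPM and CCNE2 at 14.9, 16.3 and 16.7 TPM, and CCNE1 was higher in every library (log2 ratio 0.49 ± 0.07, SD, n = 3). Their order depended on the length used. INTS8 on the other strand covers most of the 37.1% of CCNE2 exon bases that are shared, and with those bases left out of the length the ratio was -0.18, and -0.30 when no length was used. The order of the E cyclins is therefore not settled by these counts.

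Cyclin A acts in S phase and early mitosis. CCNA2, the form of dividing body cells, stood at 72.0, 73.6 and 75.1 TPM. CCNA1, known mainly from the germ line, was listed at 0 counts in each library. Since 3 counts over the libraries would be 0.0277 TPM, its level was at most that. CCNA2 was thus at least 2660-fold higher than CCNA1. The B cyclins, partners of CDK1 in mitosis, were both high. CCNB1 was at 171, 172 and 171 TPM, with the smallest spread of all 44 genes (0.447% of its mean), and CCNB2 at 87.9, 88.8 and 92.7 TPM. CCNB1 was higher in every library, by 0.93 ± 0.04 on the log2 scale (SD, n = 3), and by 0.35 with canonical transcript lengths. Of the summed TPM of the 9 cyclins, CCND1 took 37.6% ± 0.529, CCNB1 25.7% and CCNB2 13.5%.

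CDK1 (ENSG00000170312, chromosome 10, 60778331 to 60794852, plus strand), the mitotic kinase, was the highest of the 44 genes and above 98.7% of protein-coding genes. It stood at 327, 345 and 338 TPM (336 ± 8.97, SD, n = 3) and took 62.7% ± 0.845 of the summed TPM of the 5 CDKs. CDK4 was at 101, 96.3 and 95.7 TPM, CDK2 at 66.8, 67.9 and 67.6 TPM, and CDK7, the kinase that activates the other CDKs, at 24.6, 25.0 and 24.5 TPM. CDK6 was the lowest at 10.0, 10.4 and 10.8 TPM. The ranges of the 5 kinases did not overlap. Without any length, CDK6 took 6.12% of the sum of the 5 CDKs and CDK7 2.87%, so that CDK7 was then the lowest.

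CDK4 and CDK6 are alternative partners of the D cyclins, and CDK4 was 9.40-fold higher (log2 ratio 3.23 ± 0.10, SD, n = 3). CDK4 carries the largest overlap of the 44 genes, with 43.2% of its exon bases under TSPAN31 on the other strand. Leaving those bases out raised its level by a factor of 1.68, to 164 TPM, and the log2 ratio to 4.04. Without any length the ratio was 1.28, since the CDK6 exon union of 12260 bases is far longer than the 3168 of CDK4. CDK4 was above CDK6 in each of these forms. In all, 9 of the 44 genes share more than 10% of their exon bases with genes on the other strand, among them CDK2 (16.8%), FOXM1 (15.9%) and PLK1 (12.5%), and their counts leave out reads over those bases.

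**Figure D2:**
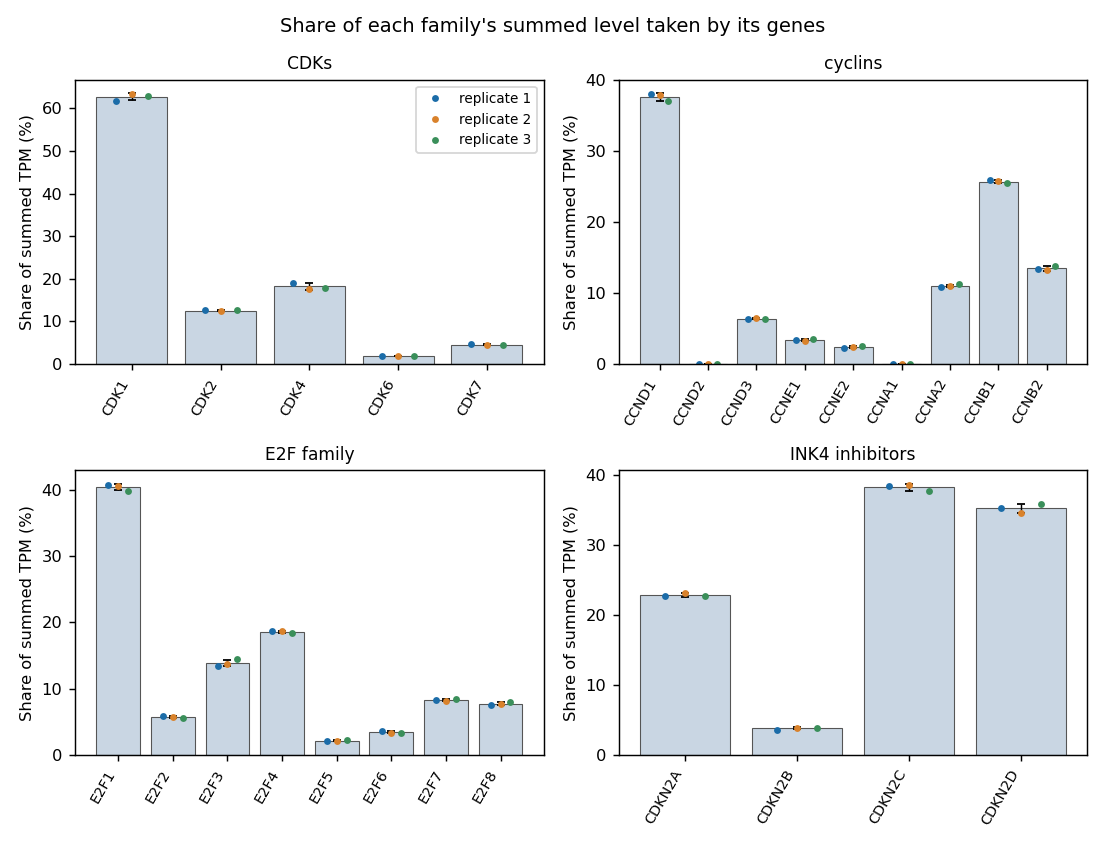
Share of the summed TPM of 4 families taken by each gene, in percent. Bars are means of the 3 libraries, error bars are SD and points are libraries. With exon unions as length, CDK1 takes 62.7%, CCND1 37.6%, E2F1 40.4% and CDKN2C 38.2% of its family. CDKN2D follows CDKN2C at 35.2%, but with canonical transcripts CDKN2A (37.5%) follows it and CDKN2D is at 13.8%.

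CDKN1B (p27), which binds cyclin and CDK complexes and is removed by SKP2, was the highest inhibitor among the 44 genes at 109, 106 and 108 TPM. The INK4 inhibitors, which bind CDK4 and CDK6 alone, were all expressed but lower. CDKN2C (p18) was at 31.6, 30.1 and 30.3 TPM and CDKN2D (p19) at 29.0, 27.0 and 28.8 TPM. CDKN2A stood at 18.7, 18.1 and 18.2 TPM and CDKN2B (p15) at 2.97 to 3.12 TPM. The CDKN2A gene makes both p16 and the unrelated protein ARF from shared exons, and gene counts do not separate them.

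The levels of the INK4 genes also depended on the length used. CDKN2C exceeded CDKN2D by 0.12 ± 0.04 on the log2 scale (SD, n = 3) with exon unions and by 1.78 with canonical transcripts. The level of CDKN2A was 18.4 TPM with its union of 4329 bases and 54.7 TPM with its canonical transcript of 978 bases. Summed INK4 genes stood at a log2 ratio of -0.43 ± 0.02 (SD, n = 3) to summed CDK4 and CDK6 with exon unions, and at 0.29 with canonical transcripts. Whether inhibitor or kinase transcripts were in excess was therefore not fixed by the counts. CDKN2C was the highest and CDKN2B the lowest of the 4 under exon unions, under canonical transcripts and without length. The 2 genes between them changed places, as CDKN2D was second under exon unions. CDKN2A was second under canonical transcripts (37.5% of the family sum against 13.8% for CDKN2D) and without length (33.7% against 18.0%).

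CDC25 phosphatases remove the inhibitory phosphates that WEE1 and PKMYT1 place on CDK1. CDC25B was the highest of the phosphatases at 46.8, 48.8 and 48.6 TPM, followed by CDC25A, which acts also at the G1 to S transition, at 38.7, 39.3 and 39.1 TPM. CDC25C was at 18.3, 19.1 and 18.7 TPM. Of the opposing kinases, PKMYT1 was at 47.6, 45.4 and 44.3 TPM and WEE1 at 35.5, 33.7 and 34.4 TPM. Summed phosphatases exceeded summed kinases by 0.40 ± 0.07 on the log2 scale (SD, n = 3). This was 0.083 when shared exon bases, 31.6% in PKMYT1 mostly under PAQR4, were left out, and -0.57 with canonical transcripts, so that its direction rests on the length.

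**Figure D3:**
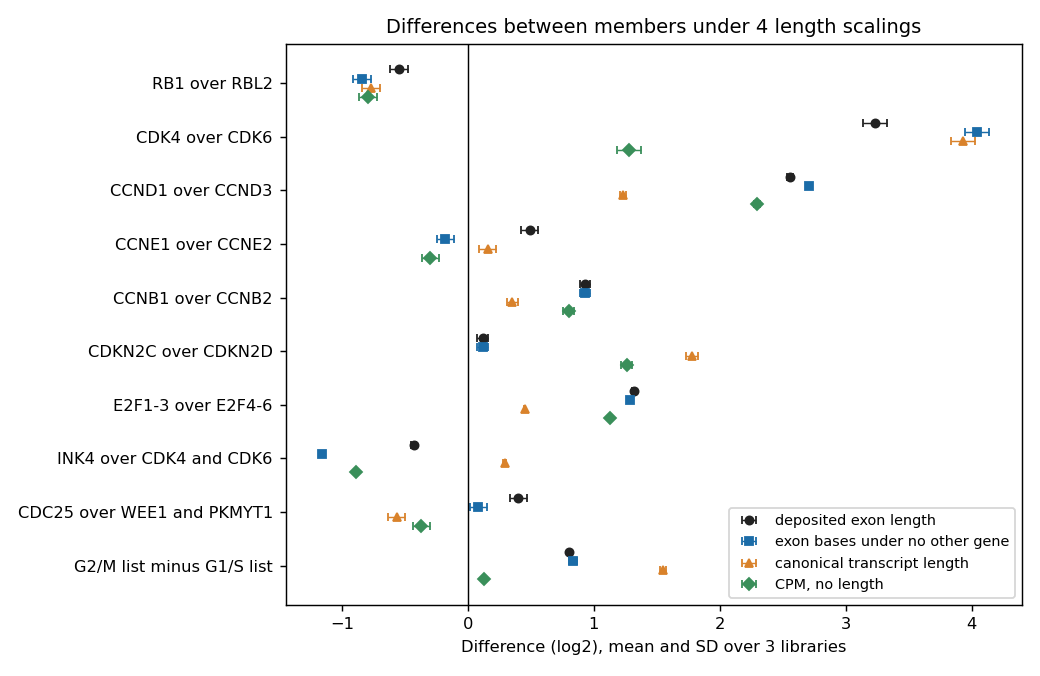
Differences between genes or gene sums on the log2 scale under 4 ways of treating gene length, as means with SD over the 3 libraries. Points right of 0 mean that the first named side is higher. The ratios of the E cyclins, of INK4 genes to CDK4 and CDK6, and of CDC25 genes to WEE1 and PKMYT1 lie on both sides of 0, and the other 7 stay on 1 side.

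Aurora kinases and PLK1 drive centrosome maturation, spindle assembly and division. AURKB was at 73.8, 76.4 and 78.7 TPM, AURKA at 75.6, 76.1 and 72.5 TPM, and PLK1 at 61.2, 65.8 and 63.2 TPM. The Aurora kinases overlapped in range, and PLK1 lay below both. This order depended on the length used. With canonical transcripts PLK1 was above both, at 94.0 TPM against 92.6 TPM for AURKB and 72.4 TPM for AURKA. MYBL2 (B-MYB), which joins the MuvB complex to activate G2 genes, was at 262, 252 and 255 TPM. Its range overlapped that of CCND1, which was the higher of the pair as CPM, a count scaled to its library total with no length (388 against 228 CPM), and with canonical transcripts (192 against 179 TPM). FOXM1, which follows MYBL2 on the same promoters, was at 106, 107 and 107 TPM. MKI67, the gene of the proliferation marker Ki-67, was at 102, 104 and 103 TPM, and SKP2, the ubiquitin ligase subunit that marks p27 for removal, at 80.6, 83.9 and 85.3 TPM.

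The 13 genes that act from G1 to S phase were set against the 13 of G2 phase and mitosis. The former were the D and E cyclins, CDK2, CDK4, CDK6, E2F1 to E2F3, CDC25A and SKP2, and the latter CCNA2, the B cyclins, CDK1, CDC25B, CDC25C, PLK1, the Aurora kinases, FOXM1, MYBL2, WEE1 and PKMYT1. Their median levels were 42.5 ± 0.698 and 75.0 ± 1.15 TPM (SD, n = 3). On the log2(TPM + 1) scale the mitotic list was higher by 0.81, 0.80 and 0.80 in the 3 libraries. The G1 to S list spans CCND2 to CCND1 and the mitotic list CDC25C to CDK1, so that the lists overlapped widely. The mitotic list remained higher under each alternative, from 0.13 without length to 1.55 with canonical transcripts. Genes are not replicates, and no test over genes was made.

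When the 44 genes were placed in order of mean level, 14 of the 43 pairs of neighbours had overlapping ranges over the 3 libraries. Such pairs were MYBL2 and CCND1 near the top, CDKN1B and FOXM1, TFDP1 and SKP2, and AURKB, AURKA and CCNA2 in a row. In the middle CDC25B, PKMYT1 and E2F3 ran together, as did RB1 and WEE1, RBL1 and CDKN2D, and TFDP2, E2F8 and CDK7. Lower down CDC25C, CDKN2A and E2F2 overlapped, and so did E2F6 and CDK6. The ranges of the other pairs did not overlap. This spread does not include the effect of the length used, and the order of some of these pairs reversed with canonical transcripts. E2F3 and CCND3 were then at 30.8 and 82.0 TPM, and MKI67 and CDK4 at 69.9 and 111.8 TPM.

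Replicates were compared gene by gene with a chi-square test of the 3 counts against library sizes scaled by TMM, halved because each read pair could be counted as both of its mates. This compares libraries, not conditions. None of the 43 genes with at least 30 counts passed an adjusted p of 0.05, against 0.792% of all 22229 genes tested. At an unadjusted p under 0.05 there were 4 of the 43, namely CDK1, RB1, TFDP1 and MYBL2, beside 2503 of all 22229 genes tested. CDK1 had the smallest Benjamini-Hochberg adjusted p of the chi-square test, 0.142, with 18630, 21573 and 19604 counts. Without halving, 7 of the 43 (16.3%) passed, namely those 4, CDK4, PKMYT1 and PLK1, beside 17.3% of all genes. The median distance from the lowest to the highest library was 0.07 on the log2 scale for the 43 genes and 0.20 for all genes tested. This distance is larger for genes of few counts, as the plot of spread against counts shows.

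**Figure D4:**
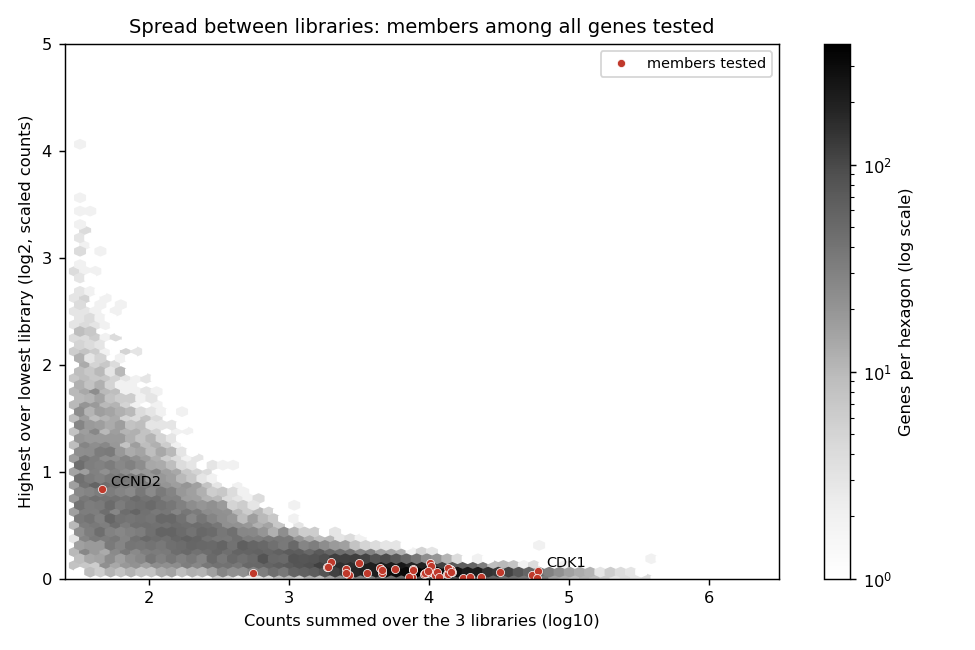
Distance between the highest and lowest library (log2 of scaled counts) against the counts summed over the 3 libraries (log10), for tested genes with a count in every library. Hexagons are shaded by number of genes and red points are the 43 tested genes of the set. All but CCND2 (0.84, 46 counts) lie near the bottom of the plot, where genes of many counts lie.

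The machinery around these genes was read from 8 lists of 58 further genes, all of which were expressed. Of the MuvB core, which pairs with RBL2 or MYBL2, RBBP4 was the highest at 100.1 TPM and LIN37 the lowest at 2.27 TPM, with 54.0% of LIN37 exon bases under other genes. Among the 15 origin licensing genes, which prepare replication origins before S phase, MCM7 was the highest at 247 TPM and ORC3 the lowest at 9.37 TPM. Of 9 replication genes, PCNA, the sliding clamp, was at 432 TPM and GINS3 at 11.4 TPM. CDC20 led the 7 spindle checkpoint genes at 187 TPM and MAD1L1 was last at 10.2 TPM.

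The anaphase-promoting complex, which destroys the A and B cyclins, ranged over 15 genes from ANAPC10 at 5.24 TPM to ANAPC5 at 76.8 TPM. CCNH and MNAT1, the partners of CDK7, were at 55.5 and 17.5 TPM. CDKN1A (p21), the p53 target and relative of CDKN1B, stood at 136 ± 3.39 TPM (SD, n = 3), above CDKN1B in every library, and CDKN1C was at 20.0 ± 1.68 TPM. The partners of AURKB, BIRC5, CDCA8 and INCENP, ranged from INCENP at 74.3 TPM to BIRC5 at 116 TPM, and AURKB itself was at 76.3 TPM. BIRC5 was above AURKB in every library. Between libraries, 2 of the 58 passed the halved test, beside 0.792% of all genes tested, and 12 of the 58 passed without halving, beside 17.3%. ANAPC11 had 3359, 3318 and 2883 counts (Benjamini-Hochberg adjusted chi-square p 0.000851) and MCM2 had 14197, 14976 and 13535 (adjusted p 0.0100). Both had their highest TPM in replicate 1.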

How the data were processed

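Total RNA of the 3 C4-2B replicates was depleted of ribosomal RNA and sequenced as read pairs from directional libraries. Per the submitters' processing notes and the file headers, the authors aligned reads to GRCh38 with STAR 2.7.0f and counted them with featureCounts 1.6.3 (Subread) on Ensembl release 90. The deposited values are unnormalized counts for each gene, and the gene's length, another value in the deposited tables, is the union of its exons. The recorded command set only annotation, output and 3 threads, so strand was ignored, mates were counted separately, and reads over several genes or places were not counted. Per the notes FastQC, Trim Galore and DESeq2 1.26.0 were also used by the authors.

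Samples were grouped by title. Symbols were matched for 57532 of 58302 genes, and gene types and canonical transcripts came from GENCODE release 44. TPM was computed from counts and deposited lengths over all genes. Expressed meant at least 1 TPM in all 3 libraries. Ratios were taken within each library and given as mean and SD, with no test, since an exact sign test over 3 libraries cannot go below 0.25. The chi-square test (2 degrees of freedom, divided by 2, at least 30 counts, Benjamini-Hochberg over all genes tested, threshold 0.05) used TMM factors from edgeR 4.0.16 and, as an alternative, DESeq2 1.42.0 size factors (R 4.3.3, Python 3.11.15, scipy 1.17.1). It was run on simulated counts made as doubled Poisson counts. Halving is right for such counts by construction, so this does not show that it suits these data. A limit for a gene at 0 is 3 counts over the libraries, and intervals are 95% exact Poisson. The edgeR quasi-likelihood test was not used because 1 group gives no contrast. All 44 genes are named with, of the 58 other genes, the highest and lowest of each list and those past the threshold. CDCA8 was named besides. The genes, lists and halved test were chosen with earlier results of these data known, and canonical lengths, promoter windows and neighbouring genes were added after the values were seen.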

Additional observations from a re-analysis of the deposited data

How the results depend on the processing

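No paired analysis was possible because count tables of only 1 group were analysed here. With exon bases under no other gene as length, the log2 ratio was -0.84 for RB1 over RBL2, 4.04 for CDK4 over CDK6, 2.71 for CCND1 over CCND3, -0.18 (reversed) for CCNE1 over CCNE2, 1.29 for E2F1 to E2F3 over E2F4 to E2F6, -1.16 for INK4 genes over CDK4 and CDK6, 0.083 for CDC25 genes over WEE1 and PKMYT1, and 0.83 for the G2/M list minus the G1/S list. As CPM, with no length, the same were -0.80, 1.28, 2.29, -0.30 (reversed), 1.13, -0.89, -0.37 (reversed) and 0.13, with 0.80 for CCNB1 over CCNB2 and 1.26 for CDKN2C over CDKN2D. With canonical transcript length, added after the data were seen, they were -0.77, 3.93, 1.23, 0.16, 0.45, 0.29 (reversed), -0.57 (reversed) and 1.55, with 0.35 for CCNB1 over CCNB2 and 1.78 for CDKN2C over CDKN2D. These shifts follow from the lengths alone. The G2/M minus G1/S difference was 1.19 with list means and 0.82 with a pseudocount of 0.1. The number of genes that differed between libraries was 176, against 3835 without halving and 38 to 223 when 1 replicate was left out (38 without replicate 1, 44 without replicate 3), and the number among the 44 genes was 0, against 7 without halving. Expressed members numbered 42 throughout, except 41 at a minimum of 5 TPM. Depth limits CCNA1, at 0 counts, to an upper bound and leaves CCND2 with 46 counts.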

Other observations

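Levels of the genes next to RB1, CDKN2A, CCND1 and CDK4 were read after the values of those 4 genes were seen. Beside RB1 on chromosome 13, ITM2B stood at 27.3 ± 0.76 TPM (SD, n = 3), LPAR6, which lies within RB1, at 4.88 ± 0.25 TPM and RCBTB2 at 2.50 ± 0.20 TPM. Around CDKN2A on chromosome 9, MTAP, the neighbouring gene of methionine salvage, was at 12.9 ± 0.55 TPM, whereas DMRTA1 had 0, 2 and 4 counts and the interferon genes IFNA8, IFNA1 and IFNE had 0.

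CCND1 stood apart from its neighbours on chromosome 11. It was at 250.4 TPM, whereas TPCN2 was at 5.99 ± 0.29 TPM (SD, n = 3) and LTO1, which shares exon bases with CCND1, at 5.96 ± 0.44 TPM. The growth factor genes FGF19, FGF4 and FGF3 had 0 counts in all 3 libraries. Around CDK4 on chromosome 12, OS9 was at 63.9 ± 2.53 TPM, MARCHF9 at 22.1 ± 0.72 TPM and TSPAN31 at 10.3 ± 0.30 TPM, all below CDK4 at 97.8 ± 3.06 TPM. No test was made of these differences.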
